A study of Mus musculus with 2 samples.

Results

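The killer cell lectin-like receptors are a family of surface proteins with a C-type lectin-like domain, encoded on mouse chromosome 6. Most of their genes lie close together in the region known as the natural killer gene complex. Every gene of the deposited tables whose symbol starts with Klra, Klrb, Klrc, Klrd, Klre, Klrg, Klri or Klrk was taken, which gave 26 of 32285 genes, none of them chosen by a measured value. All 26 lie on chromosome 6, 23 of them on the reverse strand. Klrg2 lies from base 38625693 and Klrg1 from base 122270596, apart from the others, which begin between bases 128609227 and 131219223. Levels are described for the 24 members with at least 20 deduplicated transcript counts (UMIs) in all kept cells. The members under that number were Klrb1 with 6 UMIs and Klra10 with 15 UMIs. Klrg2 had 8 and 13 UMIs in the 2 libraries, and no class of cells held 20 of them.

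The cells came from the livers of irradiated male C57Bl6/J mice that had received bone marrow, either of Trem2-/- mice or of their Trem2+/+ littermates. After 6 weeks of recovery all recipients ate a diet without methionine and choline for 4 weeks, which makes the liver fatty and inflamed. Live CD45+ cells of 4 mice per group were pooled and captured as 1 library per group with a 10x Genomics kit that reads transcripts from the 5' end. Genotype, library and pool of mice therefore cannot be told apart, no difference between the libraries has a replicate check, and no test was made. Trem2 is missing only in cells that grew from the donor marrow, and cells that the recipient kept carry its own genotype.

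Members of this family set the balance by which natural killer (NK) cells, type 1 innate lymphoid cells (ILC1) and some T cells decide whether to attack another cell. Many Klra proteins, also called Ly49, read classical MHC class I on the other cell, and most of them inhibit while a few activate through the adaptor Tyrobp. Klrd1 (CD94) pairs with Klrc1 (NKG2A) to an inhibitory receptor, or with Klrc2 (NKG2C) to an activating one, and both pairs read the non-classical MHC molecule Qa-1. Klrk1 (NKG2D) is an activating receptor for stress-induced ligands, Klrb1c carries the NK1.1 epitope, Klrb1b inhibits on binding Clec2d, and Klrg1 inhibits on binding cadherins.

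The Trem2-/- library held 6362 barcodes and 25288032 UMIs, and the Trem2+/+ library held 7012 barcodes and 27238586 UMIs. Of these barcodes 5973 and 6596 were kept, and the median depth of a kept cell was 2932 and 2492 UMIs. Levels are given as CPM, which is the number of UMIs of a gene summed over the cells of a class, divided by all UMIs of that class and multiplied by 1000000. Trem2 itself stood at 6.19 CPM (154 UMIs) in the Trem2-/- library and 204 CPM (5478 UMIs) in the Trem2+/+ library, and which part of the gene the Trem2-/- mice lack is not stated in the labels. Doublet calling marked 5 and 2 barcodes and had not worked at that rate, so the kept cells hold doublets. The libraries shared 56 barcode sequences, 5 of them among NK, ILC1 and T cells in both. All intervals below are 95% intervals that cover counting error only.

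The members stood at 566 CPM (14084 UMIs) over all kept cells of the Trem2-/- library and at 429 CPM (11504 UMIs) in the Trem2+/+ library. Lymphoid clusters held 76.8% and 68.6% of these UMIs, and myeloid and dendritic classes held 20.1% and 26.7%. NK-like cells alone held 15.4% and 25.7%, ILC1-like cells 15.8% and 18.7%, and the T cell subsets together 37.3% and 17.5%. Of the kept cells 23.4% and 13.4% belonged to the T cell subsets. The part of the makeup of the libraries in the family total was not tested, and levels within a class are described from here on.

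**Figure D1:**
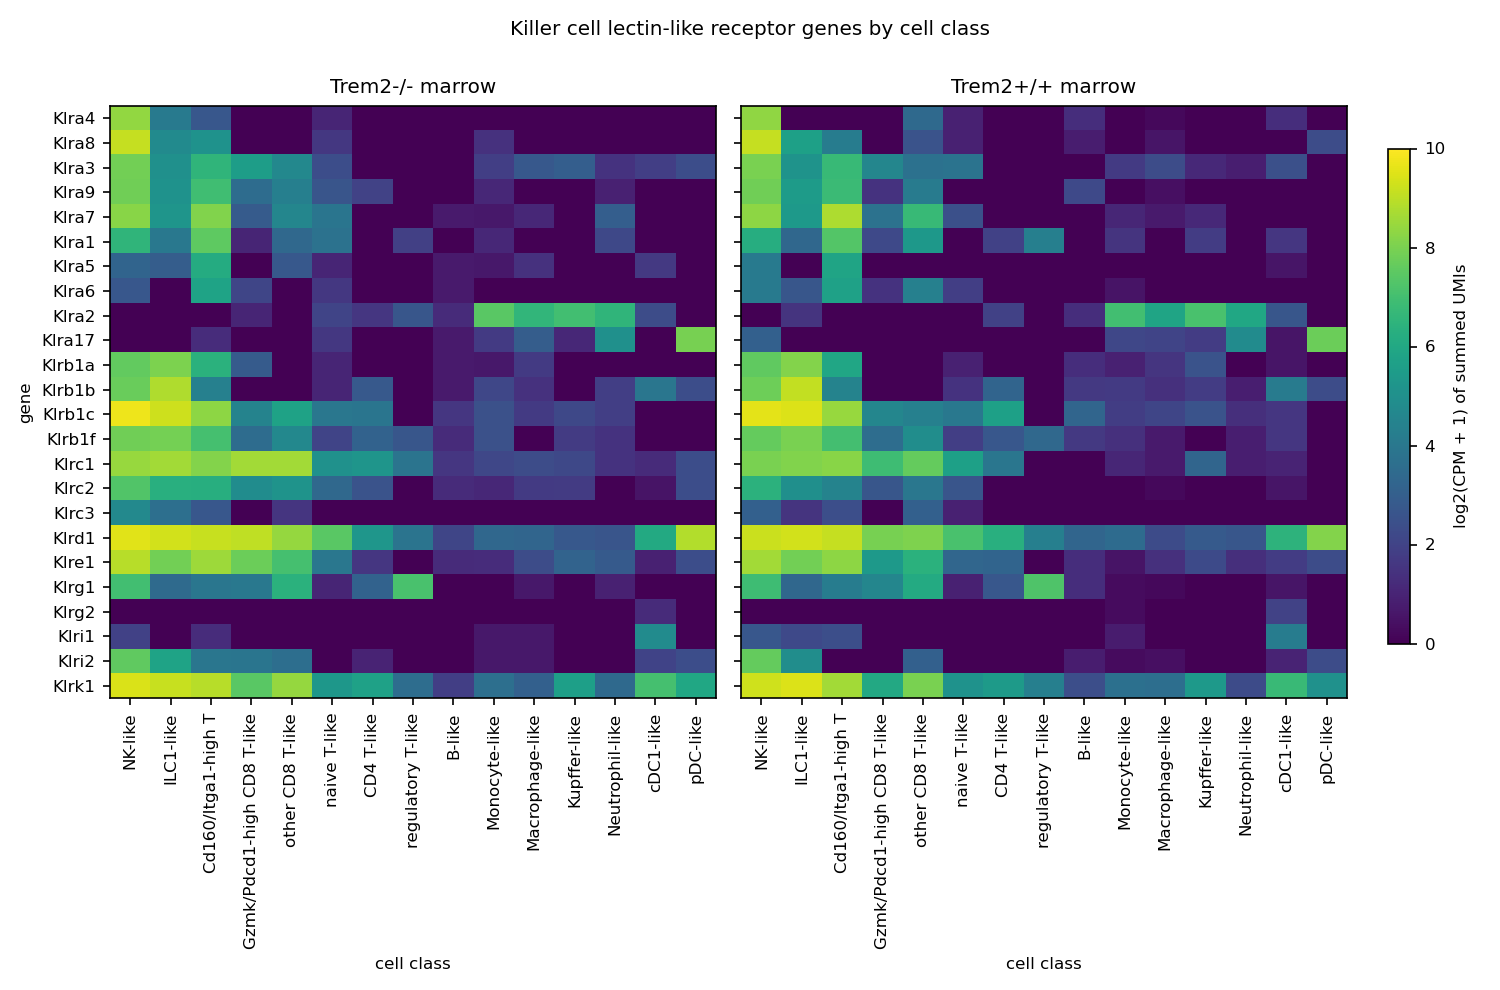
Level of each of the 24 members, as log2(CPM + 1) of summed UMIs, by cell class in the Trem2-/- library (left) and the Trem2+/+ library (right). Klra4 and Klra8 are brightest in NK-like cells, Klra2 in monocyte-like cells and Klra17 in pDC-like cells in both libraries.

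Cells were clustered on variable genes that left out all 26 members, so no member chose the cells it is described in. The NK-like cluster had Ncr1 UMIs in 87.4% of its cells, Eomes in 48.9%, Cd3e in 8.52%, and was led among its markers by Cma1, Itgam, Prf1 and S1pr5. The ILC1-like cluster had Ncr1 in 92.8% of its cells, Cd160 in 69.2%, Cxcr6 in 38.0%, Itga1 in 12.7%, Eomes in 10.1% and Cd3e in 3.80%. Itga1, a usual marker of liver ILC1, was thus detected in few cells of the cluster given that name. NK-like cells numbered 100 of 5973 (1.67%, interval 1.36 to 2.03%) in the Trem2-/- library and 170 of 6596 (2.58%, 2.21 to 2.99%) with Trem2+/+ marrow. On the log2 scale the ratio of these shares was -0.62 (-0.98 to -0.27), and it was smaller in size under every other setting computed. ILC1-like cells numbered 121 (2.03%) and 116 (1.76%), a log2 ratio of 0.20 (-0.16 to 0.57).

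Klra genes stood several times higher in NK-like than in ILC1-like cells of both libraries. Klra8 (Ly49H), an activating receptor of C57BL/6 NK cells known for binding a cytomegalovirus protein, stood at 557 CPM in NK-like and 26.5 CPM in ILC1-like cells of the Trem2-/- library. The corresponding Klra8 levels in the Trem2+/+ library were 553 and 50.7 CPM. Klra4 (Ly49D), an activating receptor for a foreign MHC class I allele, stood at 332 CPM in NK-like and 16.6 CPM in ILC1-like cells of the Trem2-/- library. In the Trem2+/+ library Klra4 stood at 324 CPM in NK-like cells and had 0 UMIs in ILC1-like cells, which is at least 59.5-fold higher when 3 counts stand in for 0. The log2 ratio of NK-like over ILC1-like levels was 4.35 and 3.42 for Klra8, in the Trem2-/- and the Trem2+/+ library in that order, and 4.26 for Klra4 in the Trem2-/- library.

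The inhibitory Klra genes followed the same order of classes. Klra7 (Ly49G) stood at 301 and 318 CPM in NK-like cells of the Trem2-/- and Trem2+/+ libraries, against 36.5 and 41.7 CPM in ILC1-like cells. For Klra3 (Ly49C) the NK-like levels were 234 and 250 CPM and the ILC1-like levels 31.5 and 34.4 CPM. The ILC1-like values of these genes were about as low in one library as in the other. Klra9 (Ly49I) stood at 229 and 226 CPM in NK-like cells and 33.1 and 43.5 CPM in ILC1-like cells. Klra1 (Ly49A) stood at 92.0 and 73.5 CPM in NK-like cells and at 14.9 and 9.06 CPM in ILC1-like cells, and its log2 ratio in the Trem2+/+ library moved from 2.90 to -0.14 when the members were left among the clustering genes. Klra5 and Klra6 were rare in both classes, at 8.36 and 16.5 CPM and at 5.57 and 16.5 CPM in NK-like cells.

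The windows before the transcription start of these genes are shown because Klra4 and Klra8, high in NK-like cells, have close relatives in Klra17 and Klra2, which were found mainly in myeloid and dendritic cells. The RefSeq (GRCm38.p6) promoters used here matched 23 of the 26 members, and none was matched to Klrg1, Klrd1 or Klri2. Of the 23 members, 5 list 2 starts. Each sequence is the 250 bases before the first listed start, on the gene's own strand. Capitals mark the letters TTTGAA or their reverse complement, a shorter string than the core that TCF and LEF factors bind. The windows lie at chr6:130067272-130067521 for Klra4, chr6:130129899-130130148 for Klra8, chr6:129876673-129876922 for Klra17 and chr6:131247363-131247612 for Klra2, all on the reverse strand.
Klra4: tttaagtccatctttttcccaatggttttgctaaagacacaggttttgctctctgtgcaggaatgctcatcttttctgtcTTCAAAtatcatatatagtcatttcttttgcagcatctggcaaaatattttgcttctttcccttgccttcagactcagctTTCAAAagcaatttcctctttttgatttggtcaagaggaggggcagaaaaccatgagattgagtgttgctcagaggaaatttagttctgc
Klra8: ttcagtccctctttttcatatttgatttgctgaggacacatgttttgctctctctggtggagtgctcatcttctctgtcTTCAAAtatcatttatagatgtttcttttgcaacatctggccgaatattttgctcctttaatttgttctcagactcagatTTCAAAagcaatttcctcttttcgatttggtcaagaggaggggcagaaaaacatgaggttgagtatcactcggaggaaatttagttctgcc
Klra17: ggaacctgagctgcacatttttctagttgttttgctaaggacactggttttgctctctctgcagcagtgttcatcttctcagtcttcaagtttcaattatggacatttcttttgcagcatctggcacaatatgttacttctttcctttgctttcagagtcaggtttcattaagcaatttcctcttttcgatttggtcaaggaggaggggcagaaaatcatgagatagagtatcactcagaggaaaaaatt
Klra2: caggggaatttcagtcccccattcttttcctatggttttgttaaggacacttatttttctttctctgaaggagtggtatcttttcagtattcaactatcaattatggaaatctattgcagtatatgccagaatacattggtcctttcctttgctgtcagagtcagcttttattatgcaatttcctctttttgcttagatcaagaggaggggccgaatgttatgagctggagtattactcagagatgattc
The Klra4 and Klra8 windows were identical at 84.5% of aligned positions, the highest of the 55 pairs of Klra windows, whose median was 47.6%. Klra17 shared 79.0% with Klra4 and 77.4% with Klra8, and Klra2 shared 74.6% with Klra17 and 70.1% with Klra4. These letters appeared, with both strands searched, 2 times in each of the Klra4 and Klra8 windows and 0 times in those of Klra17 and Klra2. Counting a gene once if any listed start matched, they were present for 7 of 11 Klra genes (63.6%). The 7 were Klra3, Klra4, Klra5, Klra6, Klra7, Klra8 and Klra9. They included Klra5 and Klra6, which were rare in NK-like cells, and not Klra1, which was higher in NK-like than in ILC1-like cells. Of all 32851 RefSeq promoter windows of that length, each counted singly, 16.0% held these letters. Genes with 2 listed starts had 2 windows searched, so the shares are not counted alike. These matches describe letters and not sites of binding.

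Members outside the Klra genes also differed between the classes. Klrg1, an inhibitory receptor of mature NK cells and effector T cells, stood at 125 and 118 CPM in NK-like cells and 9.94 and 9.06 CPM in ILC1-like cells, with log2 ratios of 3.56 and 3.57. Klri2, which pairs with Klre1, stood at 187 and 199 CPM in NK-like cells against 54.7 and 29.0 CPM in ILC1-like cells. Klre1 stood at 490 and 393 CPM against 235 and 230 CPM. The difference between the classes was thus wider for Klrg1 than for Klri2 and Klre1.

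Klrb1b was the member that was lower in NK-like than in ILC1-like cells past 1.5-fold in both libraries. It stood at 209 and 219 CPM in NK-like cells and at 444 and 542 CPM in ILC1-like cells, log2 ratios of -1.08 and -1.30. Its neighbour Klrb1a, an activating receptor, stood at 195 and 186 CPM against 260 and 284 CPM, log2 ratios of -0.41 and -0.61, so it passed 1.5-fold in 1 library only. Of the 18 members with enough UMIs, 11 were higher in NK-like cells by 1.5-fold in both libraries, beside 4.44% of all genes, and 1 was lower, beside 6.6% of all genes. The 11 were Klra1, Klra3, Klra4, Klra7, Klra8, Klra9, Klrc2, Klrc3, Klre1, Klrg1 and Klri2, of which Klrc3 rested on 9 and 4 UMIs in NK-like cells.

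The members that NK-like and ILC1-like cells held at like levels were the receptors found on both lineages. Klrb1c (NK1.1) stood at 855 and 768 CPM in NK-like cells and at 598 and 712 CPM in ILC1-like cells. Klrk1 stood at 688 and 612 CPM against 564 and 705 CPM, and Klrd1 at 741 and 590 CPM against 630 and 643 CPM. The order of the classes was thus opposite in the 2 libraries for Klrk1 and Klrd1. Klrc1 stood at 354 and 252 CPM against 389 and 272 CPM, and Klrb1f at 229 and 199 CPM against 242 and 250 CPM. None of these 5 members reached 1.5-fold between the classes in either library.

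**Figure D2:**
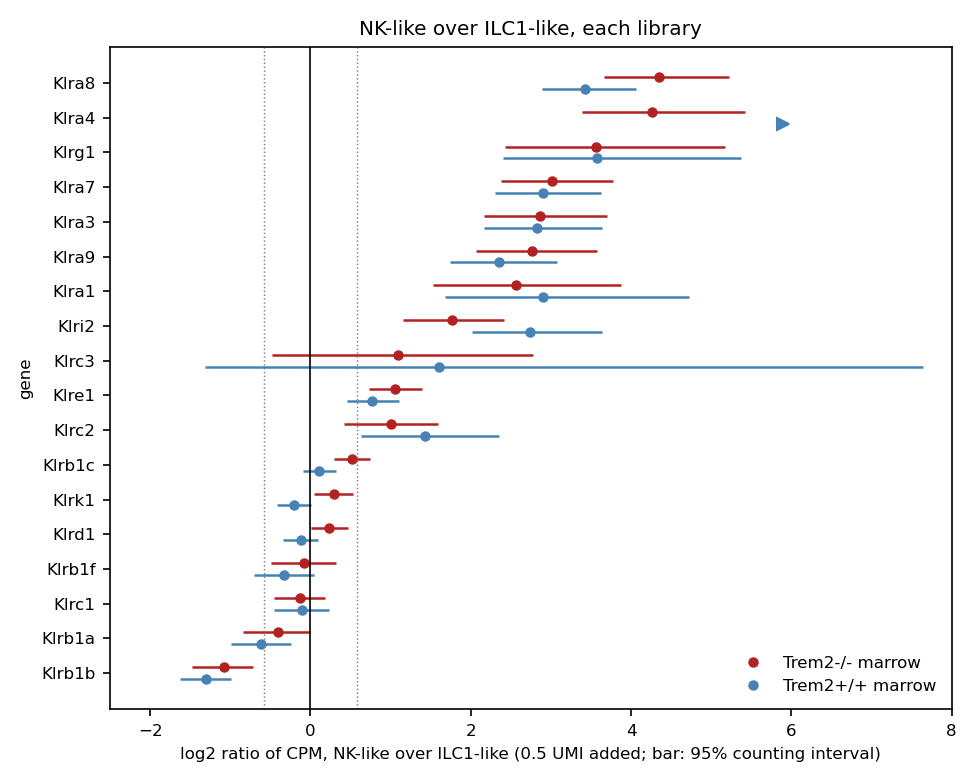
Log2 ratio of CPM of NK-like over ILC1-like cells for the 18 members with at least 20 UMIs, with 95% counting intervals, in each library; dotted lines mark 1.5-fold and the arrowhead is the lower bound for Klra4, which had 0 UMIs in Trem2+/+ ILC1-like cells. The Klra genes and Klrg1 lie to the right, the receptors shared by both lineages near 0, and Klrb1b to the left in both libraries.

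Each NK-like cell showed UMIs of only some of the 11 Klra genes. The mean number detected per cell was 2.27 ± 1.43 (SD over 100 cells) in the Trem2-/- library and 2.12 ± 1.48 (SD over 170 cells) in the Trem2+/+ library, with a largest number of 6 and 5. At least 1 Klra gene was seen in 86.0% (77.6 to 92.1%) and 81.2% (74.5 to 86.8%) of NK-like cells, at medians of 3134 and 2860.5 UMIs per cell. In B-like cells, which should lack these genes, the shares were 0.834% and 0.637%, at medians of 1983 and 1733 UMIs. After each cell was thinned to 1000 UMIs, the means in NK-like cells were 1.26 and 1.25, over the 98 and 155 cells deep enough.

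ILC1-like cells had a mean of 0.36 and 0.35 Klra genes, and 19.8% and 22.4% of them had any, at higher medians of 4704 and 4366.5 UMIs per cell. Within the NK-like cluster, Klra4 and Klra8 were seen together in 30 of 100 and 51 of 170 cells, where the product of their shares would give 21.4 and 32.5 cells. Klra7 and Klra8 were seen together in 30 and 41 cells, beside products of 23.1 and 34.6. Klrc1 and Klra8 were seen together in 19 and 20 cells, beside products of 23.6 and 28.1. Most other pairs counted in NK-like cells also lay on the same side of the product in both libraries. Klra4 and Klra7 were seen together in 22 and 32 cells, beside products of 16.4 and 22.6. Klrc1 and Klra7 were seen together in 14 and 18 cells, beside products of 18.1 and 19.6. The exceptions were Klra3 with Klra7 and Klrc1 with Klra9, which lay on different sides in the 2 libraries. Klra3 and Klra7 were seen together in 14 and 30 cells, beside products of 15.5 and 24.8, and Klrc1 and Klra9 in 12 and 18 cells, beside products of 13.8 and 15.3. No test was made of these counts. The part of depth per cell in these counts was not tested.

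**Figure D3:**
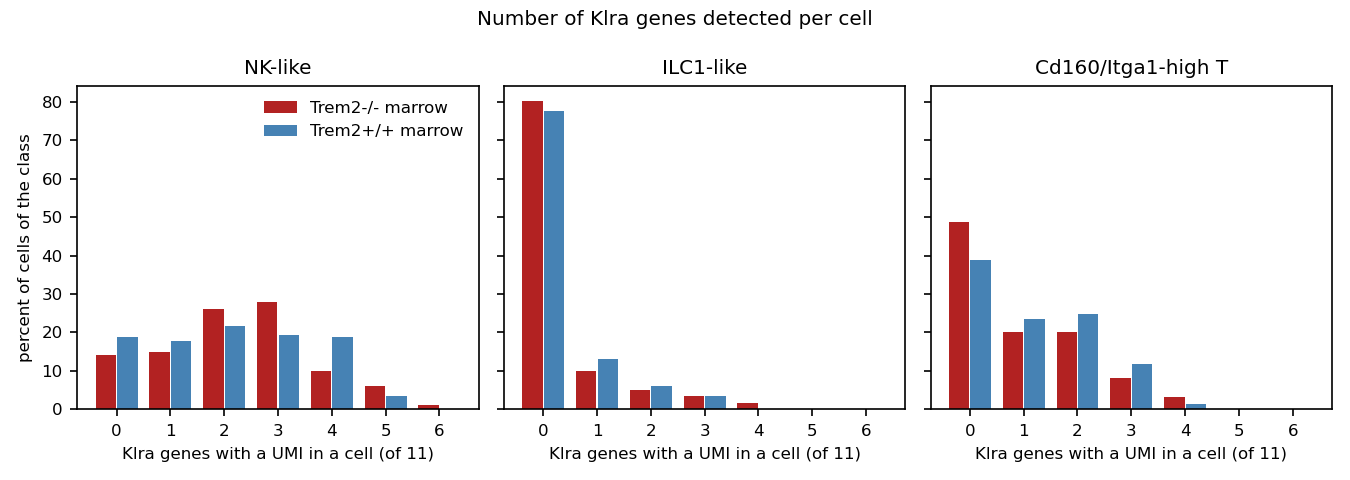
Percent of cells by the number of Klra genes with a UMI, of 11, in NK-like, ILC1-like and Cd160/Itga1-high T cells of the Trem2-/- library (red) and the Trem2+/+ library (blue), unthinned. Most ILC1-like cells had 0, while 71.0% and 63.5% of NK-like cells had 2 or more.

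Between the libraries, 1 of 17 members passed 1.5-fold in NK-like cells. The 6 Klra genes with enough UMIs had log2 ratios of Trem2-/- over Trem2+/+ from -0.09 for Klra3 to 0.33 for Klra1, with 0 inside every interval at the reported settings. The Klra1 ratio rested on 33 and 40 UMIs and ranged from 0.63 to 1.62 over its 7 alternatives, with an interval above 0 in 5 of them. The member past 1.5-fold was Klrc2, which pairs with CD94. Klrc2 stood at 156 CPM (56 UMIs) against 84.6 CPM (46 UMIs), so that its log2 ratio was 0.88 (0.30 to 1.48), and this was 0.23 after thinning each cell to 1000 UMIs. Klrc1 stood at 354 against 252 CPM (0.49, 0.13 to 0.85) and Klrd1 at 741 against 590 CPM (0.33, 0.09 to 0.57), with 0.85 after the same thinning and 0.08 without the highest doublet scores. The 1 of 17 members past 1.5-fold stands beside 20.2% of all genes tested in NK-like cells, and the median log2 ratio was 0.10 over the members and 0.08 over all genes. The median depth per NK-like cell was also higher in the Trem2-/- library.

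In ILC1-like cells Klrc2 was again past 1.5-fold, and Klrc1 did not reach it. Klrc2 stood at 77.9 CPM (47 UMIs) against 30.8 CPM (17 UMIs), so that its log2 ratio was 1.31 (0.51 to 2.23). Klrc1 stood at 389 against 272 CPM (0.52, 0.22 to 0.83) while its partner Klrd1 stood at 630 against 643 CPM (-0.03, -0.24 to 0.18). Klrk1 stood at 564 against 705 CPM (-0.32, -0.54 to -0.11), and Klrb1b at 444 against 542 CPM. Of 14 members 2 were higher past 1.5-fold, Klrc2 and Klri2, and 1 was lower, Klra8, beside 16.2% of all genes past it either way. The Klra8 ratio of -0.92 rested on 16 and 28 UMIs and was 0.73 without the 5% of barcodes with the highest doublet score. The 14 members had a median log2 ratio of -0.13, beside 0.02 over all genes.

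Reads of Klrc2 and Klrc3 cannot be well told apart at the 5' end. Of the stretches of 60 bases in the first 300 bases of their GENCODE M21 transcripts, 54.3% of those of Klrc2 and 75.1% of those of Klrc3 were found in the other gene. Smaller shares were found for Klrb1a (12.4%, with Klrb1b and Klrb1c), Klrb1c (10.8%), Klra10 (5.39%), Klrb1b (4.95%), Klra1 (2.49%) and Klra3 (1.60%), and none for the other 18 members. How molecules from the shared stretches were counted is not known, so the levels of both genes are uncertain. Klrc3 had 28 and 15 UMIs in all kept cells. The windows before the start are shown for Klrc1 and Klrk1, which lie in the same complex. Both genes were found in NK-like, ILC1-like and T cells, and were lower past 1.5-fold in the T subsets summed in both libraries. The windows lie at chr6:129678974-129679223 (Klrc1) and chr6:129623865-129624114 (Klrk1) on the reverse strand of GRCm38.p6. The letters TGTGGT or their reverse complement, the core that RUNX factors bind, are in capitals.
Klrc1: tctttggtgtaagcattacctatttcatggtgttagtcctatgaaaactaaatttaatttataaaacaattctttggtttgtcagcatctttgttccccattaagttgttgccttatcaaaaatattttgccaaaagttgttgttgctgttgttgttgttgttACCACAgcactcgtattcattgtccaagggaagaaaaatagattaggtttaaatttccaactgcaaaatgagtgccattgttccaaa
Klrk1: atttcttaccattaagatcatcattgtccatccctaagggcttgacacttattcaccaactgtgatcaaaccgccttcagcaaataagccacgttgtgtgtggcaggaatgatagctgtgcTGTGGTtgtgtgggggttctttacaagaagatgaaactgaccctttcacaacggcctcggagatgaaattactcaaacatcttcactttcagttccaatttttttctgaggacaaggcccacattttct
TGTGGT was found on either strand, at any listed start, for all 5 of Klrc1, Klrc2, Klrc3, Klre1 and Klrk1. It was found for 1 of 11 Klra genes (Klra1), for 8 of 23 members (34.8%) and in 14.0% of all RefSeq windows counted singly. TTTGAA was found in 0 of the same 5. The motifs were searched separately, and a window with no match says nothing of the factor.

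Most members stood at lower levels (CPM) in the T subsets summed than in NK-like cells. Of 20 members compared, 18 were higher in NK-like cells than in the T subsets summed, by 1.5-fold in both libraries, beside 9.39% of all genes, and 0 were lower, beside 9.53%. The exceptions were Klra5 and Klra6, with log2 ratios of -0.18 and 1.89 and of -0.32 and 1.14 in the Trem2-/- and Trem2+/+ libraries. The Klra6 ratio in the Trem2+/+ library was -0.53, -0.18, -0.35 and -0.0922 under 4 other settings. The narrowest differences among the 18 were those of Klrc1 (1.08 and 1.47) and Klrd1 (1.43 and 1.66), and wide ones were those of Klra8 (6.75 and 7.83) and Klra4 (8.27 and 7.51).

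A cluster of T cells marked by Cd160 and Itga1 held more Klra1, Klra5 and Klra6 than NK-like cells did. It had 224 cells in the Trem2-/- library and 77 in the Trem2+/+ library, with Cd3e in 85.7% of cells, Cd160 in 72.4%, Fcer1g in 59.5%, Itga1 in 55.5%, Cd8a in 52.5%, Cd8b1 in 26.9%, Trdc in 20.9% and Ncr1 in 20.3%, and got no cell type name. Klra1 stood at 181 and 158 CPM in these cells, Klra7 at 277 and 433 CPM, Klra5 at 70.0 and 55.7 CPM, and Klra6 at 54.6 and 51.4 CPM. Against NK-like cells, the log2 ratios were 0.96 and 1.11 for Klra1, 2.86 and 1.73 for Klra5, and 2.99 and 1.62 for Klra6. These 3 of 19 members were higher by 1.5-fold in both libraries, beside 8.55% of all genes, and 11 were lower, beside 6.89%. Among the lower were Klra8, at 33.6 and 17.1 CPM, and Klra4, at 5.60 CPM and 0 UMIs. The NK-like sums behind Klra5 and Klra6 were small, at 3 and 9 UMIs and at 2 and 9 UMIs. When cells were instead gated by marker UMIs, the Klra1 ratio in the Trem2-/- library was -1.04.

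The cluster was mixed, and the Klra genes were uneven within it. The 130 and 49 cells with an Fcer1g UMI had Klra7 at 377 and 584 CPM and Klrb1c at 438 and 461 CPM. The 94 and 28 cells without one had Klra7 at 79.5 and 84.7 CPM and Klrb1c at 79.5 and 84.7 CPM. Cells with Fcer1g, an adaptor shared by NK cells and innate-like T cells, thus held most of both. Klra1 had 0 UMIs in the 65 and 16 cells with a Cd8b1 UMI and stood at 259 and 209 CPM in the 159 and 61 cells without. Klrc1 was even, at 344 and 283 CPM in cells with Cd8b1 and at 253 and 305 CPM in cells without. These parts were chosen after the data were seen.

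Between the libraries, the members of the Cd160/Itga1-high cluster differed about as often as all genes did. Of 15 members 3 passed 1.5-fold, beside 22.4% of all genes, with a median log2 ratio of 0.11. Klrc2 was higher in the Trem2-/- library, at 75.6 CPM (54 UMIs) against 21.4 CPM (5 UMIs), with a log2 ratio of 1.70 and an interval from 0.51 to 3.50. Klra7 was lower there, with 277 and 433 CPM and a log2 ratio of -0.64 (-0.99 to -0.28). Klra8 had a log2 ratio of 0.83 with an interval from -0.57 to 2.96. Against the Gzmk/Pdcd1-high CD8 cells described next, 13 of 17 members were higher in this cluster in both libraries, beside 7.7% of all genes.

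CD8 T cells with high Gzmk and Pdcd1, genes of activated and chronically stimulated T cells, differed between the libraries in the CD94 and NKG2 genes. They numbered 260 and 157 cells at medians of 3387.5 and 3177 UMIs. Klrd1 stood at 532 CPM (498 UMIs) in the Trem2-/- library and 246 CPM (137 UMIs) in the Trem2+/+ library (log2 ratio 1.11, 0.84 to 1.39). Klrc1 stood at 392 against 119 CPM (1.72, 1.34 to 2.13) and Klre1 at 212 against 41.3 CPM (2.33, 1.74 to 3.05). Both genes were also seen in a larger share of cells, 48.1% against 21.7% for Klrc1 and 38.1% against 8.28% for Klre1. Klrk1 stood at 172 against 64.7 CPM (1.39, 0.88 to 1.97). Klrc2 stood at 27.8 CPM (26 UMIs) against 5.39 CPM (3 UMIs). Of 8 members 6 were higher past 1.5-fold, beside 17.3% of all genes, and 1 was lower (Klrg1, at 14.9 and 23.4 CPM), beside 5.68%.

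The libraries also differed in the T cell receptor genes of these cells. A UMI of Trbv19, a variable segment of the receptor beta chain, was found in 108 of 157 cells (68.8%) of the Trem2+/+ library and in 8 of 260 (3.08%) of the Trem2-/- library. Trbv3 was found in 88 and 6 cells, and Trbv12-2 in 70 and 11 cells, of the Trem2-/- and Trem2+/+ libraries. The 108 Trem2+/+ cells with Trbv19 had Klrd1 at 142 CPM, Klrc1 at 85.6 CPM and Klre1 at 14.7 CPM. Without the cells with a Trbv19 UMI, Klrd1 stood at 540 CPM (252 cells) against 535 CPM (49 cells), a log2 ratio of 0.01. Klrc1 then stood at 406 against 210 CPM (0.93, 0.42 to 1.53) and Klre1 at 215 against 115 CPM (0.87, 0.19 to 1.71). Klrk1 stood at 168 against 81.3 CPM (0.99, 0.20 to 2.03). The Trem2+/+ values rested on 31, 17 and 12 UMIs in 11, 11 and 4 cells, in that order of genes. Klrd1 thus did not reach 1.5-fold in the cells without Trbv19, and Klrc1, Klre1 and Klrk1 had smaller ratios in them that were past 1.5-fold. The intervals of Klrc1, Klre1 and Klrk1 all began below 1.5-fold. Klra3 went from a log2 ratio of 0.97 to -0.42, and Klrb1c from -0.15 to -2.01 (-3.07 to -0.86). Levels also varied with the segments common in the Trem2-/- library. There Klrc1 stood at 558 CPM in cells with Trbv3 and 288 CPM in cells without it. For Trbv12-2 the Klrc1 levels were 355 CPM with it and 405 CPM without it. The part of these segments in the remaining ratios was not tested. A shared segment does not show that cells are 1 clone, and the Trbv19 split was chosen after the data were seen.

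**Figure D4:**
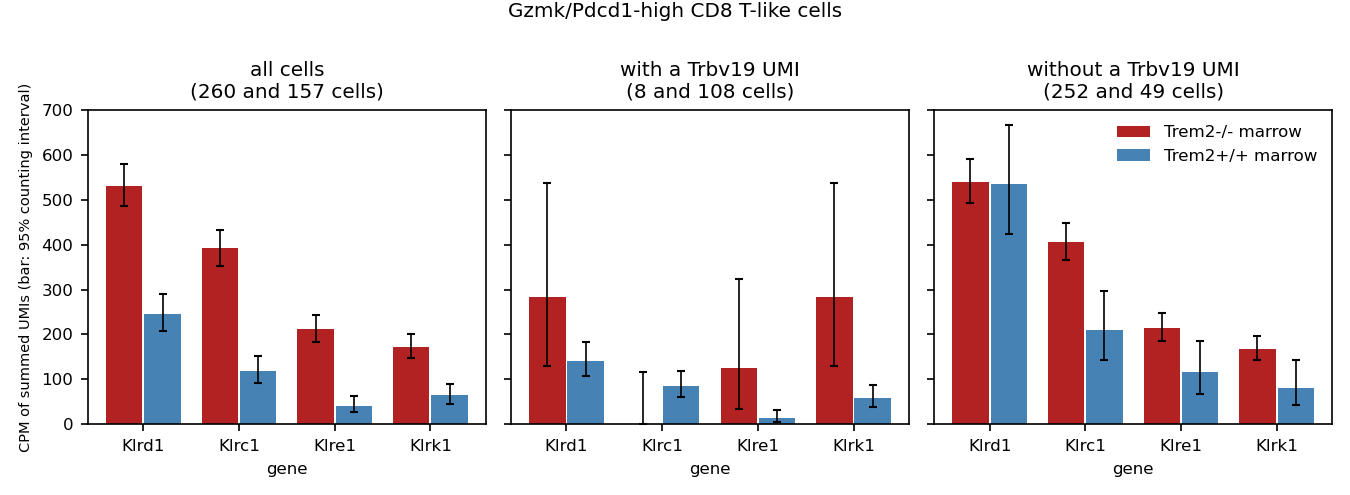
CPM of Klrd1, Klrc1, Klre1 and Klrk1 in Gzmk/Pdcd1-high CD8 T-like cells of the Trem2-/- library (red) and the Trem2+/+ library (blue), for all cells and for cells with and without a Trbv19 UMI, with 95% counting intervals. Without the Trbv19 cells, Klrd1 stands at 540 and 535 CPM, while Klrc1 stays at 406 and 210 CPM.

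In the other CD8 T-like cells, 124 and 100 in number, the inhibitory Klrc1 stood at 387 CPM (204 UMIs) in the Trem2-/- library and 199 CPM (82 UMIs) in the Trem2+/+ library (log2 ratio 0.95, 0.58 to 1.35). Klra7 stood lower there, at 22.8 CPM (12 UMIs) against 107 CPM (44 UMIs), although it was seen in 4.03% and 5% of cells. The Klra7 UMIs of the Trem2+/+ library thus lay in few cells. Of 10 members 6 passed 1.5-fold either way, beside 21% of all genes. Naive T-like cells held little of the family apart from Klrd1, at 171 and 140 CPM, with 2 of 5 members past 1.5-fold beside 15.7% of all genes. CD4 T-like cells held Klrd1 at 37.6 and 78.7 CPM and Klrk1 at 51.5 and 42.2 CPM, with 3 of 4 members past it beside 21.6%. In regulatory T-like cells Klrg1, known there from effector-type cells of tissues, stood at 141 and 149 CPM (52 and 16 UMIs), and it was the only member with enough UMIs for a ratio. In the Il17a-high T cells, 23 and 38 in number, no member reached 20 UMIs over both libraries. Klrd1 stood at 209 CPM (110 UMIs) and 71.6 CPM (11 UMIs) in the 152 and 48 other T cells.

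Summed over T cells, 9 of 18 members were higher in the Trem2-/- library past 1.5-fold, beside 9.35% of all genes, and 0 were lower, beside 3.31%. The median log2 ratio was 0.64, beside 0.10 over all genes, and was 0.29 when each subset counted equally. The Cd160/Itga1-high and Gzmk/Pdcd1-high cells, which hold many of these UMIs, made up 3.75% and 4.35% of all cells with Trem2-/- marrow and 1.17% and 2.38% of those with Trem2+/+ marrow. The median was 0.52 without the Cd160/Itga1-high cluster and 0.57 without the Gzmk/Pdcd1-high cluster. Equal weighting leaves out the sizes of all subsets at once, and the part of each other subset's size alone was not tested.

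**Figure D5:**
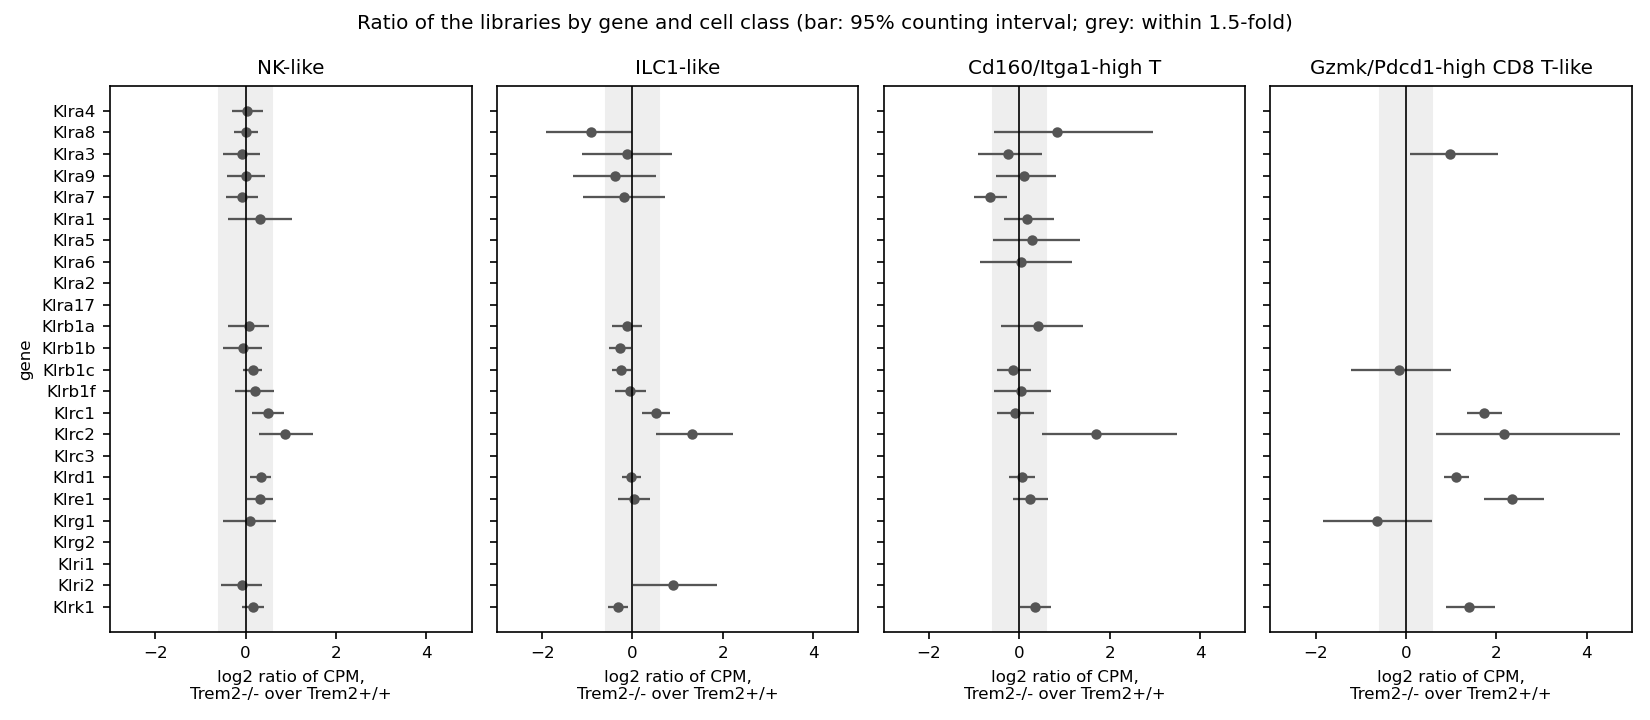
Log2 ratio of CPM of the Trem2-/- over the Trem2+/+ library for each member with at least 20 UMIs, with 95% counting intervals, in 4 classes; the grey band is 1.5-fold. Klra genes other than Klra1 lie near 0 in NK-like cells, Klra1 lies at 0.33 and at 0.63 to 1.62 under other settings, Klrc2 lies to the right in all 4 classes, and Klre1, Klrc1, Klrk1 and Klrd1 lie to the right in Gzmk/Pdcd1-high CD8 T-like cells.

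A cluster of lymphoid cells with few UMIs, 287 and 152 cells at medians of 788 and 725 UMIs, was left unnamed and went against this direction for some members. Of 9 members 6 were lower and 1 was higher in the Trem2-/- library past 1.5-fold, beside 26.8% of all genes either way. Klrk1 stood at 304 against 464 CPM, Klrb1c at 79.1 against 171 CPM and Klrc2 at 177 CPM (56 UMIs) against 279 CPM (39 UMIs), while Klrd1 stood at 250 against 143 CPM. Only 31.9% of these cells had a Cd3e UMI and 4.56% an Ncr1 UMI, so the lineages that make up the cluster in each library cannot be told.

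A pair of Klra genes was found mainly outside lymphoid cells. Myeloid and dendritic classes held 89.3% and 91.8% of Klra2 UMIs and 86.5% and 86.8% of Klra17 UMIs. Klra2 stood at 171 CPM (597 UMIs) and 125 CPM (553 UMIs) in monocyte-like cells, a log2 ratio of 0.44 (0.27 to 0.61), and was seen in 54.5% and 41.4% of them at medians of 6906 and 6303 UMIs. It stood at 123 and 137 CPM in Kupffer-like cells, 95.6 and 56.3 CPM in macrophage-like cells and 92.2 and 60.5 CPM in neutrophil-like cells. Klra2 thus stood higher in the Trem2-/- library in monocyte-like, macrophage-like and neutrophil-like cells and not in Kupffer-like cells. In monocyte-like cells it did not reach 1.5-fold, and the share of all genes is not given for the other classes. Among macrophage-like cells, a cluster led by Gpnmb held 74 of 191 in the Trem2-/- and 425 of 752 in the Trem2+/+ library. The part of this makeup in the macrophage-like levels was not tested. Klra17 stood at 245 and 215 CPM in pDC-like cells, the plasmacytoid dendritic cells that make type I interferon, and at 31.3 and 27.1 CPM in neutrophil-like cells. In NK-like cells Klra2 had 0 UMIs in both libraries and Klra17 had 0 and 4 UMIs. Of 7 members tested in monocyte-like cells 3 passed 1.5-fold, beside 9.68% of all genes.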

How the data were processed

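The authors deposited raw UMI counts per gene and barcode, which per the file headers come from Cell Ranger 5.0.1. The submitters' processing notes name mm10, and the annotation used for counting is not stated there. Gene positions came from GENCODE M21 and promoters from RefSeq. The receptor genes, lists and subsets were chosen with earlier results of these data known.

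Barcodes were kept from 200 detected genes upward and up to 10% mitochondrial UMIs, without those Scrublet called doublets (expected rate 0.06). Cells were clustered in scanpy 1.11.5 (Python 3.11.15) on 2000 variable genes without the receptors or Trem genes, 30 principal components, 15 neighbours and Leiden resolution 1. Clusters with Cd3e or Ncr1 in at least 20% of cells were clustered again. Clusters were named from scores of fixed markers, cut-offs on the share of cells with single genes, median depth and leading genes. The Cd160/Itga1-high T cluster was named by cut-offs on Cd160, which is in no marker list, and Itga1.

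UMIs were summed per class and library. Ratios had 0.5 UMI added to each sum and needed at least 20 UMIs over both libraries, the same for all genes. Shares have exact binomial, sums exact Poisson and ratios conditional binomial intervals (scipy 1.17.1); the ratio of cell shares has a large-sample interval. Levels are per UMI and not per length. Named genes are all members and 3 lists of adaptors, ligands and other receptors. Promoter windows were aligned with biopython 1.88. The scripts were tested on simulated counts.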

Additional observations from a re-analysis of the deposited data

Results flagged for a closer look

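Some members stood higher in the Trem2-/- library in one class and lower in another. Klrc2 had a log2 ratio of Trem2-/- over Trem2+/+ of 2.17 in Gzmk/Pdcd1-high CD8 T-like cells and of -0.66 in the low-UMI lymphoid cluster. Klrk1 had 1.39 and -0.62 in the same classes. Klrb1c had 1.39 in other CD8 T-like cells and -1.86 in CD4 T-like cells. Klrd1 had 1.49 in the other T cells, a cluster with CD4 and CD8 cells and high Gzmk, and -1.07 in CD4 T-like cells. Each interval lay on 1 side of 0 at the reported settings. Under the stricter cell filter Klrb1c in other CD8 T-like cells was -0.00556 and Klrc2 in the low-UMI cluster was 0.0548, so neither difference in direction held there. With 1 library per group, none of these differences between classes was tested.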

How the results depend on the processing

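Each class sum rests on 1 library, so precision is set by UMIs, and members with few UMIs in a class are the least certain. No paired analysis was possible because each group is 1 library. A value was counted as close when it lay within the reported value's interval, or within 1.5-fold for counts of members. That interval was the mean ± SD over cells for the mean number of Klra genes, and the median of member intervals for medians. By this rule, of 96 values of the 12 main results under other settings, 93 stayed close and 3 moved. The log2 ratio of ILC1-like shares was -0.23 with cells gated by marker UMIs. The number of members lower in NK-like than ILC1-like cells was 2 in place of 1 without the 5% of barcodes with the highest doublet score, and 2 at Leiden resolution 2. The NK-like share ratio ranged from -0.57 to -0.44 over the alternatives, all smaller in size than the reported -0.62. With cells gated by marker UMIs this ratio was -0.48, with an interval from -1.08 to 0.11. The mean number of Klra genes per NK-like cell ranged from 1.26 to 2.54 and from 1.25 to 2.58, all counted as close. The ILC1-like median log2 ratio of members was 0.12 without the highest doublet scores, against -0.13 as reported, and was also counted as close. So was the T cell median of 0.29 with each subset weighted equally, against 0.64 as reported. For single members, 1575 of 1846 values stayed close, 258 moved and 13 changed direction. A change of direction was counted only for ratios reported past 1.5-fold. With a stricter cell filter (500 genes, 5% mitochondrial UMIs), the ratio of libraries was -0.00556 for Klrb1c in other CD8 T-like cells and 0.0548 for Klrc2 in the low-UMI cluster, and Klra6 in NK-like over T cells (Trem2+/+) was -0.53. That Klra6 ratio was -0.18 without the highest doublet scores, -0.35 with members among the clustering genes and -0.0922 with gated cells. Without the highest doublet scores, Klra8 in ILC1-like cells was 0.73. With gated cells, the ratio of libraries of Klra8 in the T subsets summed was -1.01 and Klra1 in Cd160/Itga1-high T over NK-like cells (Trem2-/-) was -1.04. At Leiden resolution 2, Klrc2 in other CD8 T-like cells was -0.0278 and Klrb1f in Cd160/Itga1-high T over NK-like cells (Trem2+/+) was 0.00697. With members among the clustering genes, Klra1 in NK-like over ILC1-like cells (Trem2+/+) was -0.14. Without Trbv19 cells, Klra3 in Gzmk/Pdcd1-high CD8 T-like cells was -0.42. The cause of these moves was not tested. Leaving out Trbv19 cells or a T cluster, and weighting subsets equally, were chosen after seeing the data.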

Other observations

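Dendritic cells also held members of the family. Klrd1 stood at 454 CPM (111 UMIs) and 280 CPM (69 UMIs) in pDC-like cells of the Trem2-/- and Trem2+/+ libraries, a log2 ratio of 0.70 (0.25 to 1.15), at medians of 6192 and 2690 UMIs per cell, and of 1.23 with every cell thinned to 1000 UMIs. In mature DC-like cells it stood at 222 and 254 CPM, and in cDC1-like cells at 66.8 and 86.9 CPM, beside 3.31 and 8.67 CPM in B-like cells. Klrk1 stood at 133 and 110 CPM in cDC1-like cells, the class that cross-presents antigen, and at 103 and 128 CPM in mature DC-like cells. Klri1, a receptor that pairs with Klre1, had 82.0% and 82.4% of its 100 and 85 UMIs in myeloid and dendritic classes, and stood at 27.7 and 17.2 CPM in cDC1-like cells. Of 3 members with enough UMIs in pDC-like cells, 2 passed 1.5-fold between the libraries, Klrd1 and Klrk1, beside 21.6% of all genes.

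The adaptors that carry the signal of activating members followed the classes unevenly. Tyrobp, the adaptor of the activating Klra proteins, stood at 2898 and 2945 CPM in NK-like cells, 1495 and 1465 CPM in ILC1-like cells, 702 and 762 CPM in Cd160/Itga1-high T cells and 130 and 94.7 CPM in the T subsets summed. Hcst (DAP10), the adaptor of Klrk1, stood at 736 and 803 CPM in NK-like cells and 935 and 936 CPM in the T subsets. Tyrobp thus differed between these classes far more than Hcst. Of 20 adaptor and signalling genes, 17 had enough UMIs in NK-like cells and 2 stood higher in the Trem2-/- library past 1.5-fold (Zap70 and Ptpn11), and 3 of 17 did so in ILC1-like cells (Syk, Plcg2 and Ptpn11), with 0 lower in either class. Of all genes 20.2% passed 1.5-fold either way in NK-like cells and 16.2% in ILC1-like cells. Of 20 ligand genes, 7 were measured in both classes and 0 passed 1.5-fold, beside the same 20.2% and 16.2%. H2-T23, which encodes Qa-1, stood at 426 and 480 CPM in NK-like cells and 633 and 660 CPM in endothelial-like cells, and Clec2d at 184 and 195 CPM and at 286 and 287 CPM. Of 16 other NK receptors, 14 were measured in each class. In NK-like cells 1 stood higher (Crtam), beside 20.2% of all genes either way, and in ILC1-like cells 1 stood higher (Tigit) and 4 lower (Crtam, Fcgr3, Il12rb1 and Il18r1), beside 16.2%.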
